A study of Mus musculus with 6 samples.

Results

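Heat shock and endoplasmic reticulum (ER) chaperone genes were described in mouse hippocampus with and without a deletion of Trpc4, which encodes a receptor-operated cation channel. The set was a list of 43 named genes, chosen by function: cytosolic and mitochondrial heat shock proteins, ER chaperones and folding enzymes, and the sensors and transcription factors of the unfolded protein response (UPR). The list was drawn up with earlier results of these data known. Of the 43 genes, 39 had a probe set that names that gene alone, out of 22180 genes measured in this way. The probe set with the highest mean over all arrays stood for each gene. The other 4 were not analysed as members: Dnaja1 and Pdia4 were named only together with a microRNA, and no probe set was paired with Hsp90ab1 or with Hsf1, the master factor of the heat shock response.

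The hippocampal samples comprised 3 of the Trpc4 knock out genotype and 3 of the Trpc4 wild type genotype, all from male mice on a C57BL/6J strain background at postnatal day 56 (P56), with 1 Affymetrix array each. The labels say neither which part of Trpc4 was deleted nor that replicates are separate animals. P-values therefore refer to the spread among these 6 arrays, part of which may be technical. Values are log2 signals normalised together by the authors, and differences are knockout minus wild type.

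Chaperones help newly made and damaged proteins to fold. In the cytosol, HSP70 and HSP90 proteins work with J-domain partners (the DNAJ family), small heat shock proteins hold unfolded clients, and the factor HSF1 raises their genes under heat and other protein stress by binding heat shock elements. In the ER, the HSP70 protein BiP (Hspa5), the lectins calreticulin and calnexin and the protein disulfide isomerases fold secreted and membrane proteins, many ion channels and receptors among them. When misfolded proteins pile up there, the sensors IRE1 (Ern1), PERK (Eif2ak3) and ATF6 act through XBP1, ATF4 and cleaved ATF6 to raise the genes of this machinery. Neurons carry a high load of membrane protein synthesis and express most of these genes without applied stress.

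The array medians lay between 4.73 and 4.75, and Pearson's r between arrays was 0.985 to 0.988 across probe sets, which are not independent replicates. The Trpc4 signal was 7.39, 7.55 and 7.31 in the knockout samples, against 8.06, 8.23 and 8.06 in the wild-type samples. Every knockout sample lay below every wild-type sample, but whether this probe set lies inside the deleted part is not known. All 9 markers of hippocampal pyramidal and granule neurons were brighter on average than the median probe set (4.74).

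The upstream DNA of members is shown because it carries the binding elements by which the heat shock response and the UPR are defined. In a table of promoter windows from RefSeq (assembly GRCm38.p6, from 250 bases before to 50 after each gene's start), 35 of the 43 genes had a window. The ER stress response element, read by ATF6 and XBP1, was searched on both strands as CCAAT and CCACG with 9 bases of any kind between them. It was found in 7 of the 35 members with a window, against 37 of 27025 genes in the table (0.137%). All 7 encode ER folding proteins. The stretches below run 5′ to 3′ on the gene's strand, with the element in capitals. In Calr, in Creld2 and at the second of the 2 copies in Hsp90b1 the element lies on the other strand and reads in reverse complement. The stretches are at chr8:84847055-84847113 (minus strand) for Calr, chr11:50325780-50325838 (minus) for Canx, chr12:17266471-17266529 (plus) for Pdia6 and chr2:34772005-34772063 (plus) for Hspa5. Those of Hsp90b1, Dnajc3 and Creld2 are at chr10:86705513-86705676 (minus), chr14:118937807-118937865 (plus) and chr15:88819500-88819558 (plus).
Calr: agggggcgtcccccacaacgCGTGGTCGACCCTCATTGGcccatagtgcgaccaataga
Canx: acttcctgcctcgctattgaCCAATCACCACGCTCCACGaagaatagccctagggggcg
Pdia6: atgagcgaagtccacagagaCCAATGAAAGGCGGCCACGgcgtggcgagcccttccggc
Hspa5: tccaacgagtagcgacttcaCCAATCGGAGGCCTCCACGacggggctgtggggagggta
Hsp90b1: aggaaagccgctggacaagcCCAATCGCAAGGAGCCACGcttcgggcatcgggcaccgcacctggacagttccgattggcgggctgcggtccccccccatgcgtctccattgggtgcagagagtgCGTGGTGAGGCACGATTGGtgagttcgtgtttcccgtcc
Dnajc3: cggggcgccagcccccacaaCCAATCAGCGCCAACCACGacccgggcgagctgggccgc
Creld2: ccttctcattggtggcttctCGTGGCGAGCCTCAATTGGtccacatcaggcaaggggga

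The shorter ER stress response element II, ATTGG and CCACG with 1 base between them on either strand, was present in 2 members, Dnajb11 and Herpud1, and in 12 genes of the table (0.0444%). In Dnajb11 it began 8 bases into the transcribed part. The Herpud1 stretch, at chr8:94386357-94386407 (plus strand), began 72 bases before the gene's start.
Herpud1: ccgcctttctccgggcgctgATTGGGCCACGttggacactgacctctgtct

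Heat shock elements are runs of a short unit in alternating orientation. A paired unit, GAANNTTC, which is its own reverse complement, was found in 9 of the 35 members (25.7%) and in 9.04% of all genes. The form with 3 units, which adds another GAA after 2 bases and was searched on either strand, contains the paired one and was found in Hsph1, Hspd1 and Hspe1, against 0.662% of all genes. The near-identical stress-induced genes Hspa1a and Hspa1b, at chr17:34972233-34972280 and chr17:34959315-34959362 (both minus strand), had the same printed stretch, and 247 of their 250 upstream bases were identical. Hspb1 carried 2 paired units, at chr5:135887782-135887849 (plus strand). Hspd1 and Hspe1, the mitochondrial chaperonin and its lid, are divergent neighbours: the same 58 bases, chr1:55088039-55088096, lie before both genes, minus strand for Hspd1 and plus strand for Hspe1, so that a single run of units in capitals serves as upstream sequence of both.
Hspa1a: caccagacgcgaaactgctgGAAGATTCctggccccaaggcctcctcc
Hspa1b: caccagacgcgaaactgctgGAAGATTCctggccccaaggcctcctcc
Hspb1: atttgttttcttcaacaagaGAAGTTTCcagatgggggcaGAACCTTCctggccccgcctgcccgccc
Hspd1: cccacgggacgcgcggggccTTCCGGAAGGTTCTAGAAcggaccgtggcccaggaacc
Hspe1: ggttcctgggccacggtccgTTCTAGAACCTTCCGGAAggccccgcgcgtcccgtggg
A match describes the letters of this window and is not shown here to be a bound site. The UPR element core TGACGTGG was in the window of 0 members and of 0.714% of all genes, and the ATF4-type core TGATGNAA was in those of Herpud1 and Trib3, against 4.51% of all genes.

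Signals in wild-type hippocampus were set against the median of all probe sets, which is not a detection call. The wild-type mean lay above this median for 38 of 39 members. It ran from 4.14 for the small heat shock protein gene Hspb1 to 11.54 for Hspa8, the constitutive cytosolic HSP70. Of all 22180 genes, 12920 had a mean over the 6 arrays above the same median. Signals of different probe sets depend on their probes, so they do not rank the genes by abundance. Among ER genes the wild-type signal was 10.41 for Canx (calnexin), 10.06 for Hsp90b1 (the ER HSP90, GRP94), 9.50 for Calr (calreticulin) and 7.70 for Hspa5 (BiP). The stress-induced pair Hspa1a and Hspa1b had 6.00 and 6.12, and the UPR death factor gene Ddit3 (CHOP) had 5.98. The standard deviation between wild-type samples ran from 0.01 for Dnajb5 to 0.37 for Hspb8, which was also among the dimmest members.

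**Figure D1:**
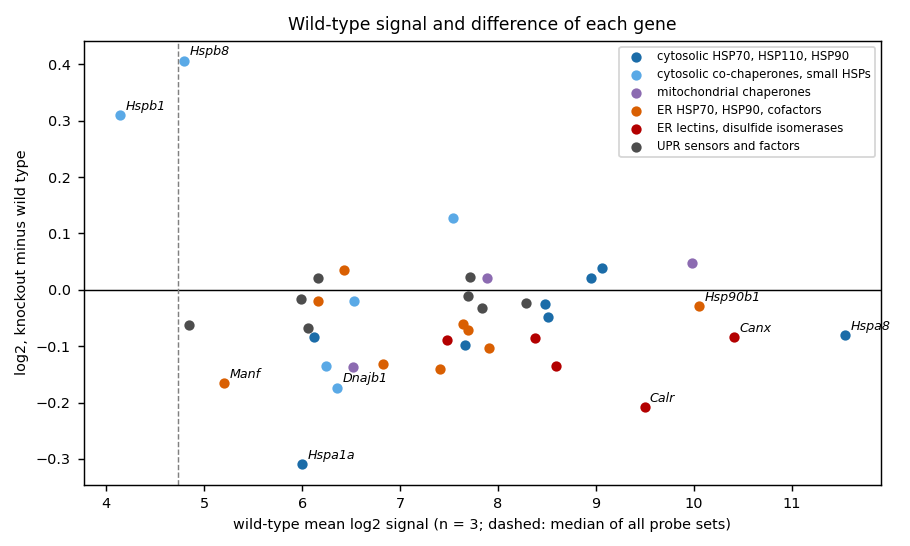
Wild-type mean log2 signal of each of the 39 genes (x axis, n = 3) against its log2 difference, knockout minus wild type (y axis), coloured by role. The 2 largest positive differences, Hspb8 and Hspb1, belong to genes whose wild-type signal lay near or below the median of all probe sets (dashed line), while Calr at 9.50 was among the brighter genes.

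No member passed the adjusted threshold in the comparison of knockout with wild type. Over the 22180 genes, limma called 0% at a Benjamini-Hochberg adjusted p of 0.05, where 1276 genes had an unadjusted p under 0.05, and the adjusted p of the members ran from 0.853 to 0.990. At an unadjusted limma p under 0.05 there were 3 members, Hspa1a and Calr lower and Hspb8 higher, which is 7.69% of the members against 5.75% of all genes tested. By direction that background is 2.59% for lower and 3.16% for higher, and a share this near to it is no result about the members. The 95% interval of the difference lay inside 1.5-fold in either direction for 36 of 39 members, against 91.7% of all genes. The exceptions were Hspa1a, Hspb1 and Hspb8. Within those limits, the mean was lower in knockout for 29 members and higher for 10. A lower mean was seen in 74.4% of members and in 45.1% of all genes, with medians of -0.06 and 0.01. Genes that vary together are not independent, and the list was drawn up with earlier results of these data known. This share is therefore only a description of these 6 samples.

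**Figure D2:**
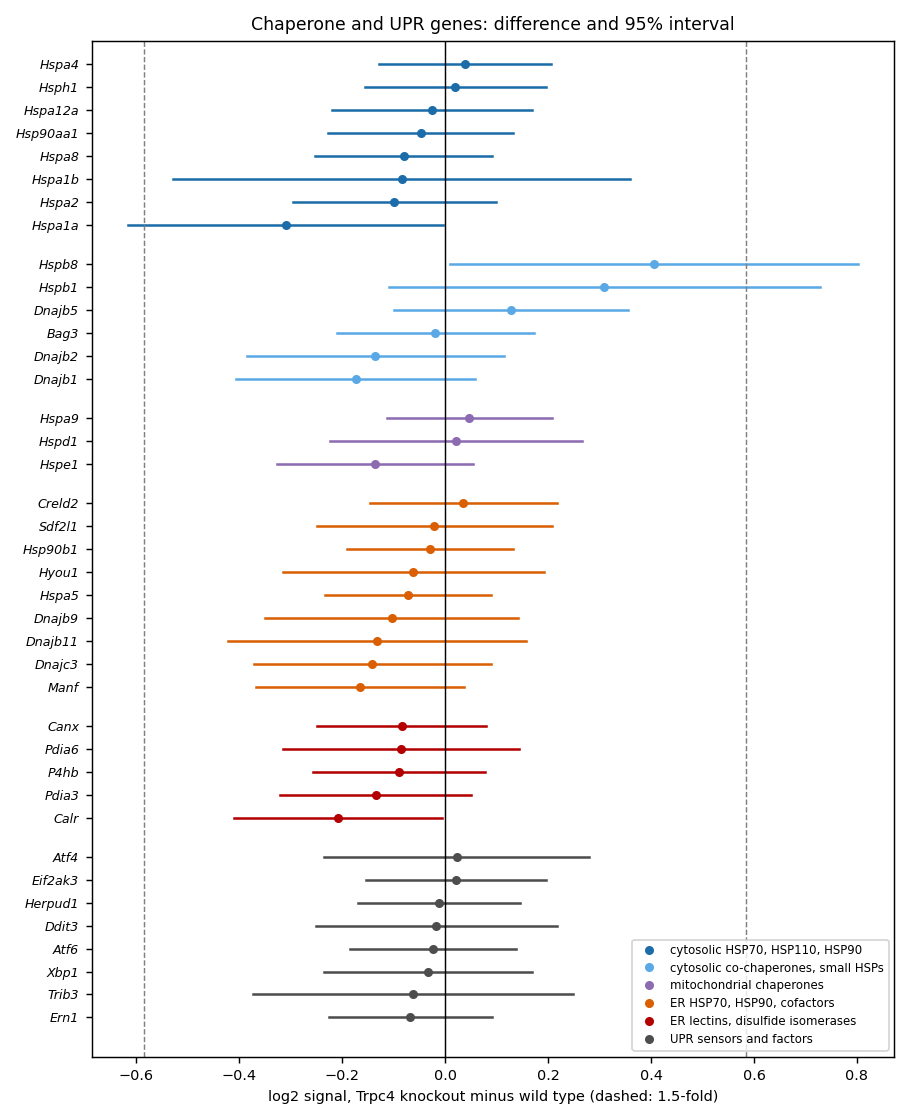
Log2 difference, knockout minus wild type (x axis), with its 95% limma interval for each of the 39 genes, grouped by role and ordered by size. Dashed lines mark 1.5-fold. All 14 ER chaperone and folding genes (orange and red) have intervals inside 1.5-fold, and 13 of them lie left of 0.

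None of the cytosolic HSP70, HSP110 and HSP90 genes passed the adjusted threshold. Among 8 measured genes the median was -0.06, and 2 had a higher and 6 a lower mean. Hspa1a, a heat-induced HSP70, had signals of 5.50, 5.85 and 5.73 in knockout, against 5.80, 6.21 and 6.00 in wild type. The groups overlapped by a narrow margin, since the highest knockout sample lay above the lowest wild-type sample. The difference was -0.31 ± 0.13 (standard error; 95% interval -0.62 to -0.0043, unadjusted limma p 0.0476, adjusted p 0.853), or 80.7% of the wild-type signal. It was -0.21 without wild-type replicate 2 (unadjusted limma p 0.157) and also -0.21 without knockout replicate 1 (unadjusted limma p 0.155). Without wild-type replicate 1 it was -0.41 (unadjusted limma p 0.0192), and that p was under 0.05 in 2 of the 6 fits that left out a sample. With replicate number as a block the unadjusted limma p was 0.00876.

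Its near-copy Hspa1b had 5.87, 6.41 and 5.83 in knockout, against 5.97, 6.44 and 5.97 in wild type. In both genotypes replicate 2 stood above the other replicates, and the difference was -0.08 with an interval of -0.53 to 0.36. The transcripts of the pair are so alike that probes for one may bind the other, so the values of Hspa1a and Hspa1b are uncertain as separate measurements. A dim probe set that names both genes differed by 0.0087 ± 0.11.

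Hspa8, which folds clients and uncoats clathrin vesicles in neurons, had 11.54, 11.41 and 11.43 in knockout, against 11.57, 11.53 and 11.52 in wild type. The lowest values were those of knockout replicates 2 and 3, and the groups overlapped through knockout replicate 1, at a difference of -0.08 (interval -0.25 to 0.09). Its other probe sets gave different values. Of 3 further probe sets that name Hspa8 alone, all dimmer, 1 differed by 0.0029 ± 0.21, while the others differed by -0.34 ± 0.11 and -0.35 ± 0.10 (standard error) with groups that did not overlap (unadjusted limma p 0.0142 and 0.0101, adjusted p 0.852). The first of these had 8.67, 8.48 and 8.62 in knockout, against 8.74, 8.94 and 9.08 in wild type. Which transcripts these probe sets bind was not tested, and the value of Hspa8 depends on the probe set chosen, being -0.19 for the mean of all 4.

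Hspa4, a nucleotide exchange factor of the HSP110 family, had the largest positive difference among these genes. Its signals were 9.07, 9.07 and 9.14 in knockout and 9.02, 9.11 and 9.04 in wild type, a difference of 0.04 (interval -0.13 to 0.21). Its relative Hsph1 differed by 0.02, the stress-induced HSP90 gene Hsp90aa1 by -0.05, and Hspa12a, a distant brain HSP70, by -0.02. Hspa2, an HSP70 best known from the testis, differed by -0.10 (interval -0.29 to 0.10).

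Co-chaperones and small heat shock proteins went both ways, 3 higher and 3 lower among 6 measured genes. Hspb8, a small heat shock protein that works with BAG3 in selective autophagy of misfolded proteins, had 5.21, 5.25 and 5.14 in knockout, against 5.12, 4.39 and 4.87 in wild type. Every knockout sample lay above every wild-type sample, by 0.03 at the nearest, which for non-overlap in this direction is 1 of 39 members against 6.41% of all genes. The difference was 0.41 ± 0.17 (standard error; interval 0.01 to 0.80, unadjusted limma p 0.0455, adjusted p 0.853). It rested in large part on 1 sample: without wild-type replicate 2 it was 0.21 (unadjusted limma p 0.0935). The unadjusted limma p was under 0.05 in only 1 of the 6 fits that left out a sample, the fit without wild-type replicate 1 (0.00798). Bag3, the partner of Hspb8, differed by -0.02.

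Hspb1 (HSP27), a small heat shock protein that holds unfolded clients, had 4.86, 4.27 and 4.21 in knockout, against 4.32, 3.99 and 4.10 in wild type. Knockout replicate 1 stood above all other samples, and without it the difference of 0.31 was 0.10. A second probe set for Hspb1 differed by -0.01. With replicate number as a block Hspb1 had an unadjusted limma p under 0.05, while Calr then did not.

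Of the J-domain partners, Dnajb1, the heat-induced HSP40, had 6.11, 6.06 and 6.38 in knockout, against 6.31, 6.38 and 6.39 in wild type. Knockout replicates 1 and 2 were below all wild-type samples and replicate 3 lay among them, at a difference of -0.17 (interval -0.41 to 0.06). Without knockout replicate 3 it was -0.27, at an unadjusted limma p of 0.0168. Dnajb2, which is enriched in neurons, differed by -0.14, and Dnajb5 by 0.13, or by 0.03 without knockout replicate 1. The 10 measured genes among the members best known as HSF1 targets gave a median of -0.06, with 3 higher and 7 lower. Members with a paired heat shock unit in their window were split evenly, 4 lower and 4 higher among 8 measured genes.

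The mitochondrial chaperones differed little, with 2 of 3 genes higher and 1 lower. Hspa9 (mortalin), the HSP70 of mitochondrial protein import, had 10.03, 10.004 and 10.07 in knockout, against 10.005, 9.96 and 9.99 in wild type. The ranges overlapped only at their edges, and the interval of the difference of 0.05 ran from -0.11 to 0.21. Hspe1 (HSP10) had 6.39, 6.34 and 6.42 in knockout, against 6.40, 6.56 and 6.60 in wild type, where replicate 1 lay within the knockout range. Its difference was -0.14 (interval -0.33 to 0.05). The chaperonin gene Hspd1 (HSP60), which shares its upstream DNA with Hspe1 as printed above, differed by 0.02 (interval -0.22 to 0.27). These intervals overlap, and the difference between the 2 genes was not tested.

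The ER chaperones and folding enzymes had slightly lower signals in knockout across the list, with none past the adjusted threshold. Of 14 measured genes 13 were lower, with a mean of -0.09 and a range of -0.21 to 0.04. The exception was Creld2, an ER stress-induced protein, at 0.04 (interval -0.15 to 0.22). Creld2 had 6.48, 6.52 and 6.38 in knockout, against 6.49, 6.42 and 6.36 in wild type. The count of lower ER genes was 12 or 13 under every setting run, with means of -0.11 to -0.07 when single samples were left out. Groups did not overlap for 6 members on the lower side (15.4%, against 4.45% of all genes), and 5 of these 6 were ER genes: Calr, Canx, P4hb, Hspa5 and Manf. The remaining one was the sensor gene Ern1. The gaps between the groups were small, from 0.00046 for Canx to 0.03 for Calr.

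Calr, the calcium-binding lectin chaperone of the ER lumen, had 9.40, 9.18 and 9.28 in knockout, against 9.48, 9.44 and 9.57 in wild type. All knockout samples were below all wild-type samples. The difference was -0.21 ± 0.09 (standard error; interval -0.41 to -0.0064, unadjusted limma p 0.0447, adjusted p 0.853), a knockout signal of 86.6% of wild type. Leaving out knockout replicate 1 gave -0.27 (unadjusted limma p 0.0233) and leaving out knockout replicate 2 gave -0.16 (unadjusted limma p 0.144). Calr had that p under 0.05 in only 1 of the 6 fits that left out a sample. Its membrane-bound partner Canx had 10.38, 10.31 and 10.31 in knockout, against 10.44, 10.38 and 10.42 in wild type. The groups met at 10.38, and the difference was -0.08 (interval -0.25 to 0.08).

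The disulfide isomerases, which form and rearrange disulfide bonds, followed with differences of -0.13 for Pdia3, the partner of both lectins, -0.09 for P4hb and -0.09 for Pdia6. P4hb had 7.39, 7.36 and 7.42 in knockout, against 7.53, 7.42 and 7.49 in wild type. Its groups were apart by less than their own spread, with an interval of -0.26 to 0.08.

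Hspa5 (BiP), the ER HSP70 whose level is the usual readout of the UPR, had 7.60, 7.65 and 7.62 in knockout, against 7.74, 7.68 and 7.67 in wild type. The knockout samples lay within 0.04 of one another and below the wild-type ones, at a difference of -0.07 (interval -0.23 to 0.09, unadjusted limma p 0.329). Manf, a secreted ER stress-induced protein, had 5.04, 5.05 and 5.02 in knockout, against 5.19, 5.08 and 5.34 in wild type, a dim signal. Its groups did not overlap, and the difference was -0.17 ± 0.09 (standard error; unadjusted limma p 0.0942). Hsp90b1 differed by -0.03, and Hyou1, the exchange factor of BiP, by -0.06. The J-domain partners of BiP differed by -0.10 (Dnajb9), -0.13 (Dnajb11) and -0.14 (Dnajc3), and Sdf2l1, which forms a complex with Dnajb11, by -0.02. Of the 7 members with an ER stress response element in their window, 6 were lower, with a median of -0.08 and a range of -0.21 to 0.04. Lower means were not particular to them, since 13 of the 14 measured ER genes were lower, against 45.1% of all genes. Creld2, the only ER gene with a higher mean, has the element. ER genes such as Hyou1, Dnajb9 and Manf, for which the search found no such element, were lower as well. The search read 1 spacing in short windows, and only 35 of the 43 listed genes had a window. Whether the element bears on these differences was not tested.

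**Figure D3:**
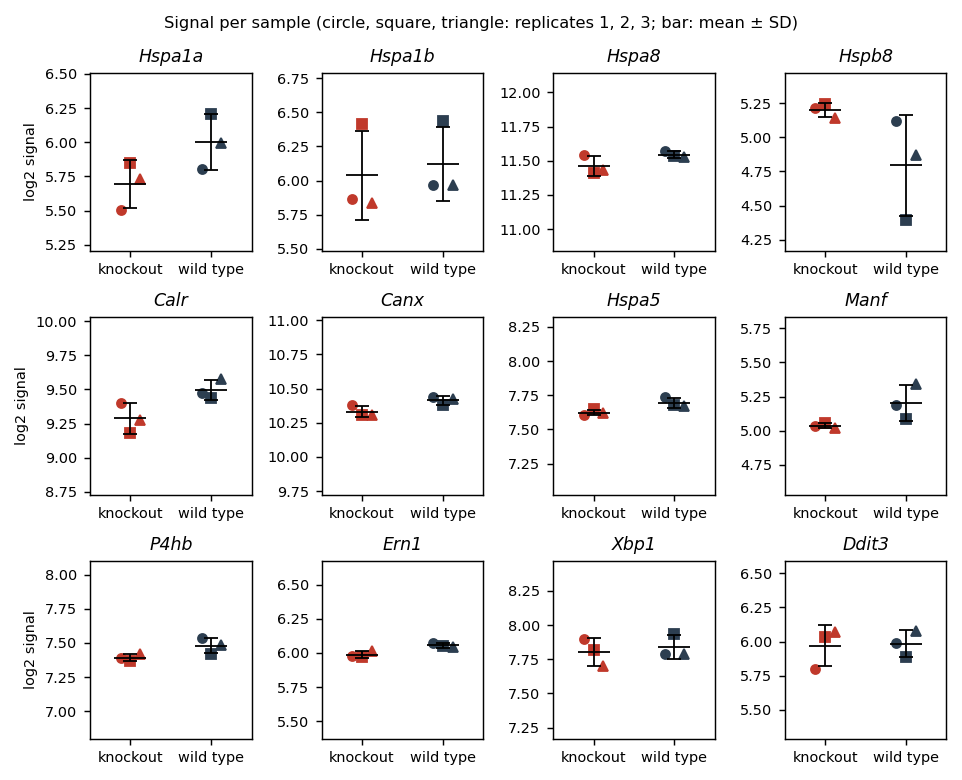
Log2 signal per sample for 12 genes, knockout left and wild type right in each panel, with the mean and SD as bars (n = 3 each). Every y axis spans the same log2 width, so that the small, non-overlapping shifts of Calr, Canx, Hspa5, Manf, P4hb and Ern1 can be set against the wide spread of Hspa1b and Hspb8.

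The sensors and transcription factors of the UPR differed little, with 6 lower and 2 higher among 8 genes and a median of -0.02. Ern1 (IRE1), which splices the XBP1 messenger RNA, had 5.98, 5.97 and 6.02 in knockout, against 6.07, 6.05 and 6.04 in wild type. Its groups were apart by 0.02, at a difference of -0.07 (interval -0.23 to 0.09). Xbp1 had 7.90, 7.82 and 7.70 in knockout, against 7.79, 7.94 and 7.79 in wild type, with ranges that overlapped throughout and a difference of -0.03. Atf4 had 7.95, 7.62 and 7.65 in knockout, against 7.81, 7.61 and 7.73 in wild type. Its difference was 0.02, and the sign turned without knockout replicate 1 (-0.08). Atf6 differed by -0.02, the PERK gene Eif2ak3 by 0.02 and Herpud1, a target that helps remove misfolded ER proteins, by -0.01. Herpud1 was the steadiest of all members, with a range of 0.05 over the 6 samples. The pro-death factor gene Ddit3 differed by -0.02 (interval -0.25 to 0.22), and its target Trib3, a dim signal, by -0.06 (interval -0.37 to 0.25). Splicing of Xbp1, translation of Atf4 and cleavage of ATF6 are not measured by these arrays.

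A score per sample was computed as the average over genes of how far a sample lies from that gene's mean. Its difference between the genotypes equals the mean of the gene differences by construction, so it adds only the values per sample. Over all 39 members the score was -0.0011, -0.03 and -0.03 in knockout, against 0.02, 0.0076 and 0.03 in wild type. For the ER lectins and disulfide isomerases it was -0.04, -0.11 and -0.03 in knockout, against 0.08, 0.04 and 0.06 in wild type. For the other ER chaperones and cofactors it was -0.06, -0.01 and -0.04 in knockout, against 0.10, -0.0090 and 0.02 in wild type. The groups did not overlap in these scores, although in the last case wild-type replicate 2 and knockout replicate 2 lay beside each other. For the cytosolic HSP70, HSP110 and HSP90 genes the score was -0.06, -0.01 and -0.04 in knockout, against -0.02, 0.11 and 0.02 in wild type, and the groups overlapped.

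Markers of oligodendrocyte myelin had lower means in the knockout samples. This held for all 14 measured markers (of 15 listed), where 45.1% of all genes had a lower mean. Of the 14, 12 had an unadjusted limma p under 0.05 (85.7%, against 5.75% of all genes) and 0 passed adjustment (lowest adjusted p 0.849). The marker list was also drawn up with earlier results of these data known, and its genes are not independent. Their score was -0.22, -0.46 and 0.08 in knockout, against 0.21, 0.16 and 0.24 in wild type. Their summed signal ran from 11.88 to 12.43 in knockout and from 12.52 to 12.59 in wild type on the log2 scale, and 0 of them were dimmer than the median of all probe sets. In bulk tissue fewer cells of a type and less RNA per cell cannot be told apart. Knockout replicate 2, the lowest in the myelin score, was also the lowest in the score of the ER lectins and disulfide isomerases. For the other 9 ER genes it was the highest of the knockout samples, and over all 14 ER genes the score was -0.05, -0.05 and -0.04 in knockout, against 0.10, 0.0079 and 0.03 in wild type. Without knockout replicate 2 the mean over the 14 ER genes was -0.09, with 12 of 14 lower. Knockout replicate 1 was low in the myelin score as well, and the part of the myelin values in the ER values was not tested. Astrocyte, microglia and endothelial and mural markers had score differences of -0.04, -0.02 and -0.07. Those of oligodendrocyte precursor and choroid plexus markers were -0.10 and -0.18, and that of the neuron markers was 0.05.

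**Figure D4:**
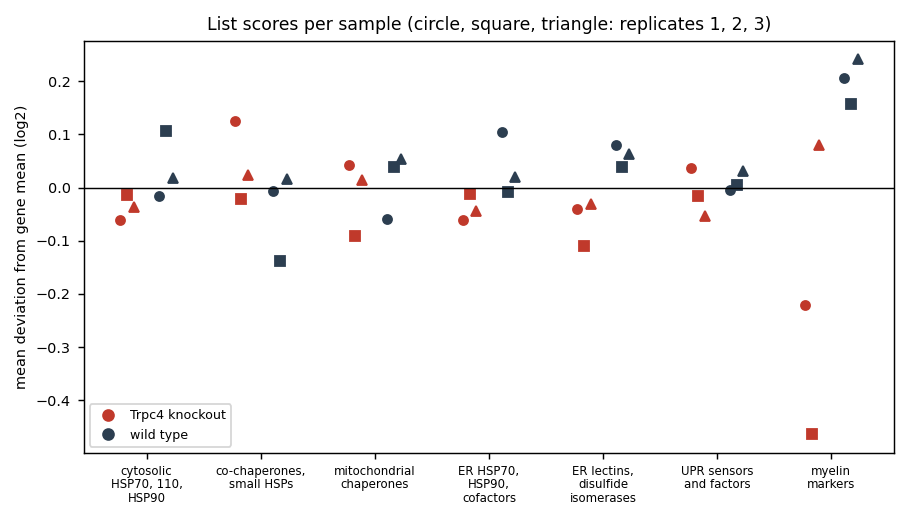
Mean deviation from the gene mean (y axis, log2) in each of 3 knockout and 3 wild-type samples, for 6 role lists and for 14 myelin markers. The ER lectin and disulfide isomerase scores of the knockout samples (-0.11 to -0.03) lie below those of wild type (0.04 to 0.08), within a far narrower range than the myelin scores.

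Among 81 measured genes of a wider list of folding and stress genes, 3 had an unadjusted limma p under 0.05 (3.70%, against 5.75% of all genes) and 0 passed after adjustment. The median difference was -0.02, with 45 lower and 36 higher. Among further ER folding and degradation genes 15 of 27 were lower, with a median of -0.02. Their groups did not overlap on the lower side for 5 of the 27 (18.5%, against 4.45% of all genes). On the higher side this held for 1 of the 27, against 6.41% of all genes. The genes of the eIF2 and ATF4 response, which include eIF2 kinases as well as induced genes such as Asns, Chac1 and Atf3, had 0 of 16 at that p and a median of -0.03. Cytosolic folding genes outside the members, which include the chaperonin CCT subunits, had 18 of 32 lower and a median of -0.02.

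The 3 genes of the wider list were Cryab, Wfs1 and Cdnf. Cryab, a small heat shock protein abundant in oligodendrocytes, had 8.01, 7.14 and 8.32 in knockout, against 8.80, 8.63 and 8.51 in wild type, and its lowest sample, knockout replicate 2, was also the lowest in the myelin score. Its difference was -0.82 ± 0.27 (standard error), or -0.48 without knockout replicate 2. For the mean of the 2 probe sets that name Cryab alone it was -0.60, so its size depends on the probe set chosen. Wfs1, an ER membrane protein and a marker of CA1 pyramidal cells, had 8.71, 8.78 and 8.81 in knockout, against 8.90, 9.04 and 9.11 in wild type. Its groups did not overlap, at a difference of -0.25 ± 0.08. With single samples left out, its unadjusted limma p was 0.0084 to 0.0593, and under 0.05 in 4 of 6 fits. Cdnf, the relative of Manf, had a signal near or below the median of all probe sets in both genotypes and differed by 0.31 ± 0.12, the opposite direction to Manf. With single samples left out, its unadjusted limma p was 0.0018 to 0.101, and under 0.05 in 2 of 6 fits, while that of Cryab was 0.00376 to 0.0616, and under 0.05 in 5 of 6. The adjusted limma p of these 3 genes was 0.849 to 0.853.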

How the data were processed

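Hippocampal RNA was extracted with Trizol and labelled as biotinylated sense cDNA, per the labels' protocols. The authors deposited log2 signals of 41345 probe sets. Per the submitters' processing notes, RMA and Affymetrix Power Tools were used, with no versions or genome build named. Joint normalisation would hide a change shared by most genes. Precision is limited by the number of arrays, and a log2 difference had a median standard error of 0.0997 over all genes.

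Of the probe sets, 23521 named 1 gene in the platform annotation (1814 several, 16010 none). The highest mean stood for each of 22180 genes. The genotypes were compared in limma 3.58.1 (R 4.3.3) with a two-sided test (genotype only, Benjamini-Hochberg over all genes). With 3 against 3 samples, an exact permutation test of a single value cannot give a p under 0.1, and none is printed. The fit was tested on simulated data. Promoter letters came from RefSeq, and figures from matplotlib 3.10.9. Members and lists were chosen with earlier results of these data known. Full values are given for members at an unadjusted p under 0.05, the extremes of each role list, preset members, wider-list genes at that p, and, added after their values were seen, Canx, P4hb and Hspb1. Alternatives were quantile normalisation, median centring, a replicate block, a filter on dim genes, array weights, a robust variance with trend, means over probe sets, and leaving out each sample. Blood markers had no probe set naming 1 gene and were not analysed here.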

Additional observations from a re-analysis of the deposited data

How the results depend on the processing

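With a robust variance and trend the 0 genes at an adjusted p of 0.05 became 1, Trpc4. They were 0 to 1 without single samples. The 1 gene called without knockout replicate 1 was not Trpc4, whose unadjusted limma p was 0.000573 in that fit. The 3 members at an unadjusted limma p under 0.05 were 0 to 3 without single samples (0 without wild-type replicate 3, and 1 without wild-type replicate 2 or any knockout replicate) and 3 or 4 under the other settings. None of the 3 kept its call under every setting. The members' median stayed between -0.07 and -0.05 and the score difference between -0.05 and -0.03 under all 13 settings. Deviations from the group means had an r of 0.067, 0.0348 and -0.0038 between same-numbered knockout and wild-type samples. Between differently numbered samples r was -0.0615 to 0.0274. These low values do not settle whether replicate numbers pair the samples. With a replicate block 3 members had an unadjusted p under 0.05, as without it, with Hspb1 gained and Calr lost. The sign of 12 members, none at an unadjusted p under 0.05, turned when single samples were left out. The ranges were -0.27 to 0.073 for Hspa1b, -0.063 to 0.034 for Hspa12a, -0.0052 to 0.067 for Hsph1, -0.070 to 0.016 for Bag3, -0.060 to 0.11 for Hspd1, -0.12 to 0.038 for Hyou1, -0.082 to 0.073 for Sdf2l1, -0.080 to 0.020 for Xbp1, -0.085 to 0.085 for Atf4, -0.068 to 0.069 for Ddit3, -0.016 to 0.058 for Eif2ak3 and -0.18 to 0.075 for Trib3. The sign of the other 27 members did not turn under any of the 13 settings. Fits without a sample also rest on fewer arrays, and the cause of these changes was not tested.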

Other observations

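Both members that only shared probe sets with a microRNA name lay on the lower side as well. The probe set naming Dnaja1, a heat-induced J-domain partner of HSP70, and Mir207 had 6.94, 6.88 and 6.81 in knockout, against 7.003, 7.04 and 7.04 in wild type, a difference of -0.15 ± 0.07 (standard error; unadjusted limma p 0.0823). The probe set naming Pdia4, an ER disulfide isomerase, and Mir704 had 6.07, 6.07 and 6.18 in knockout, against 6.14, 6.45 and 6.31 in wild type, a difference of -0.19 ± 0.10 (unadjusted limma p 0.0863). The groups did not overlap for Dnaja1 and overlapped for Pdia4, and neither passed adjustment over the 25335 named probe sets (adjusted p 0.873 and 0.875). These probe sets were read after the values of the other members were known.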
